A study of Mus musculus with 16 samples.

Results

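Sestrins, Ddit4, its paralog Ddit4l and Depdc5 are genes whose products hold back mTORC1, the kinase complex that couples growth and protein synthesis to nutrients. The product of Eif4ebp1 acts downstream of mTORC1 and does not hold it back. Followed here were Sesn1, Sesn2, Sesn3, Ddit4, Ddit4l, Eif4ebp1 and Depdc5, 7 genes chosen by name. They were matched by Ensembl identifier among the 55356 identifiers of a count table. Of the 7 genes, 6 passed the filter on low counts and were tested, and Ddit4l did not pass. The counts came from RNA of embryonic dorsal root ganglion neurons, the sensory neurons beside the spinal cord, cultured from CD1 mice. In nocodazole, transcripts of Sesn2, Ddit4 and Eif4ebp1 rose 3.96-fold, 3.02-fold and 2.18-fold, while Sesn1 fell 1.58-fold. With the inhibitor of the kinase DLK present, none of these changes was called, in a comparison where 0.0835% of all genes tested were. Sesn2, Ddit4 and Eif4ebp1 were still called higher with both drugs than with neither, 2.31-fold, 1.74-fold and 1.69-fold.

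The cultures were treated at 6 days in vitro and had been kept in nerve growth factor with uridine and 5-fluoro-2'-deoxyuridine, the latter to remove dividing cells. They received DMSO, the solvent, or 500 nM GNE3511, which blocks DLK, the dual leucine zipper kinase, a stress kinase of axons that signals to JNK. After 15 min, DMSO or 200 nM nocodazole, a drug that takes microtubules apart, was added for 16 h. The 4 groups of 4 libraries were DMSO then DMSO (the DMSO group), DMSO then nocodazole (the nocodazole group), GNE3511 then DMSO (the inhibitor group) and GNE3511 then nocodazole (the combined group). DLK was blocked with 1 compound at 1 dose, so loss of DLK activity cannot be told apart from other effects of GNE3511. The labels call the libraries replicates without saying that they came from separate cultures, and the p-values then reflect only how these libraries vary, which may be technical.

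As background, mTORC1 is switched on at the lysosome by the Rag GTPases, which report amino acids, and by Rheb, which is switched off by the TSC complex. Sestrins bind the GATOR2 complex when leucine is low, which leaves GATOR1, with its subunit Depdc5, free to inactivate the Rags. Ddit4 (also called REDD1) acts through the TSC complex, and Eif4ebp1 encodes 4E-BP1, which holds the cap-binding protein eIF4E until mTORC1 phosphorylates it. Sesn2 and Ddit4 are known stress genes, induced through ATF4 and other factors, and Sesn1 is a known p53 target. Protein, phosphorylation and mTORC1 activity were not measured in these libraries, which report transcript levels.

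Total counts ran from 30987962 to 43321421 per library. Levels are given as CPM, counts scaled to a common library size, and a change is a log2 ratio from edgeR's quasi-likelihood test, with its standard error (SE) and a p adjusted by Benjamini-Hochberg over all 19156 genes tested. A gene was called below an adjusted p of 0.05. All 10 sensory neuron markers were present, with a summed level of 13400 to 14700 CPM in the DMSO group, 10400 to 12100 in the nocodazole group, 11400 to 13100 in the inhibitor group and 10500 to 12800 in the combined group. From DMSO to nocodazole the mean of Tubb3, a tubulin gene, went from 3070 to 1010 CPM, while Nefl went from 4200 to 4080 and Avil from 270 to 419. Of the 10, 6 were called lower and 1 higher there. Of the 10 Schwann cell and satellite glia markers, 8 were under 1 CPM in every group, Sox10 among them, and the list summed to 151 to 175, 85.9 to 134, 87.4 to 154 and 74.3 to 138 CPM in the same order. Nearly all of that sum was S100b and Mbp, at means of 94.6 and 68.4 CPM in DMSO and 54.9 and 51.8 in nocodazole. Erbb3, one of those under 1 CPM, went the other way, from 0.37 to 0.827. Fibroblast markers summed to at most 8.46 CPM, macrophage markers to 5.32, pericyte markers to 2.59 and endothelial markers to 1.3. The macrophage sum was 4.13 to 5.32 CPM in the nocodazole group against 1.52 to 2.95 in the other groups, and the fibroblast sum 5.68 to 8.46 against 2.11 to 5.32. The part of these shifts in the results was not tested. In bulk RNA, fewer cells of a type and less RNA per cell cannot be told apart.

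Some libraries stood apart. In the combined group, replicate 1 lay at 10.4 on the first principal component, which held 38.2% of the variance, while replicates 2 to 4 lay at -31.4 to -28.4 and the nocodazole group at 59.5 to 69.7. Mitochondrially encoded genes took 1.71% of the counts of that library and 0.865% to 1.09% in the other combined libraries. In the inhibitor group, replicates 2 and 3 had 1.39% and 1.78% mitochondrial counts against 1.08% and 1.06% in replicates 1 and 4.

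**Figure D1:**
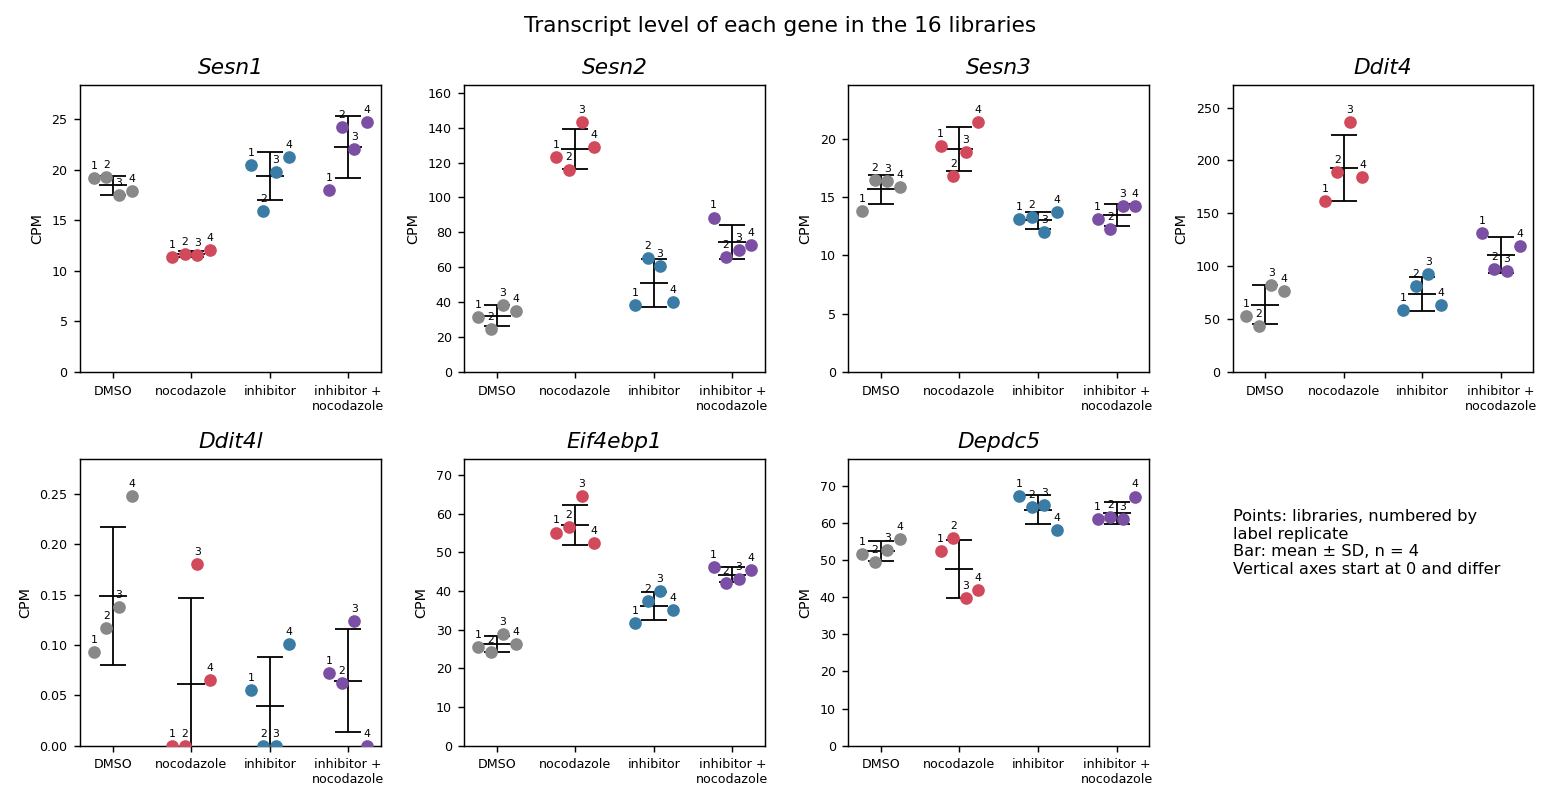
Level of each gene in CPM (vertical axes, starting at 0 and differing between panels) in the 16 libraries by group; points are libraries numbered by replicate, bars the mean ± SD of 4. Sesn2, Ddit4 and Eif4ebp1 are higher in all 4 nocodazole libraries than in any library of the other groups, and Sesn1 is lower there, at 11.4 to 12.1 CPM. The share of all genes that separate in this way is not given here, and 37.5% were called for nocodazole without the inhibitor.

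Levels of different genes were compared per kilobase (kb) of exon. In the DMSO group Ddit4 had the highest level, 36.3 CPM per kb (24.6 to 46.7 over 4 libraries). It was followed by Eif4ebp1 at 13.1 (12.1 to 14.5), Sesn2 at 9.28 (7.02 to 11), Depdc5 at 6.2 (5.84 to 6.59), Sesn1 at 4.66 (4.42 to 4.87) and Sesn3 at 1.65 (1.46 to 1.73), all in CPM per kb. Ddit4l came last at 0.0548. No neighbours in this order overlapped in the DMSO group, with exon lengths from the basic GENCODE annotation. In that set Depdc5 has 8.45 kb of exon and Sesn1 3.97 kb. The full annotation gives 11774 and 3982 bases, so the place of Depdc5 above Sesn1 in the DMSO group depends on the set. In the nocodazole group Sesn2, at 36.7 CPM per kb (33.4 to 41.1), stood above Eif4ebp1 at 28.6 (26.3 to 32.3), and the order was otherwise the same, again with no overlap between neighbours among the 6 tested genes. With the inhibitor, Eif4ebp1 and Sesn2 overlapped, at 15.8 to 20.1 and 11 to 18.7 CPM per kb in the inhibitor group and at 21 to 23.1 and 19 to 25.5 in the combined group.

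Nocodazole without the inhibitor moved 5 of the 6 tested genes past the threshold. Sesn2, Ddit4, Eif4ebp1 and Sesn3 rose and Sesn1 fell, and 37.5% of all genes tested were called in this comparison. The inhibitor alone raised Sesn2, Eif4ebp1 and Depdc5 and lowered Sesn3, 4 calls against a background of 13% called. That count was 1 without DMSO replicate 2, inhibitor replicate 2 or inhibitor replicate 3, where 1523, 1242 and 1290 genes were called in all rather than 2494, and 0 with inhibitor replicates 1 and 4 only, where 323 were. It was 2 without DMSO replicate 3 or 4, nocodazole replicate 1, inhibitor replicate 1 or combined replicate 4. Between the combined group and the nocodazole group all 6 genes differed: Sesn1 and Depdc5 were higher and Sesn2, Sesn3, Ddit4 and Eif4ebp1 lower with the inhibitor, where 33.9% of all genes were called. With the inhibitor present, nocodazole gave 0 calls among the 6 in edgeR and 0 in DESeq2 and in limma voom, while 3 of them had an unadjusted p under 0.05. In that comparison 16 of 19156 genes, or 0.0835%, were called. Leaving out 1 library moved that number between 3 (without inhibitor replicate 3) and 88 (without combined replicate 1), and DESeq2 called 125; none of the 6 genes was called in any of these settings. The combined group against DMSO had 3 of the 6 called, all higher (Sesn2, Ddit4, Eif4ebp1), with 16.7% of all genes called. The interaction, the nocodazole change with the inhibitor minus that without it, was called for 4 of the 6, Sesn1, Sesn2, Ddit4 and Eif4ebp1, and for 18.7% of all genes. These comparisons share groups of libraries, so their calls are not independent of each other. Statements below that groups did not overlap describe the libraries only. The share of all genes that separate in the same way is not given here.

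**Figure D2:**
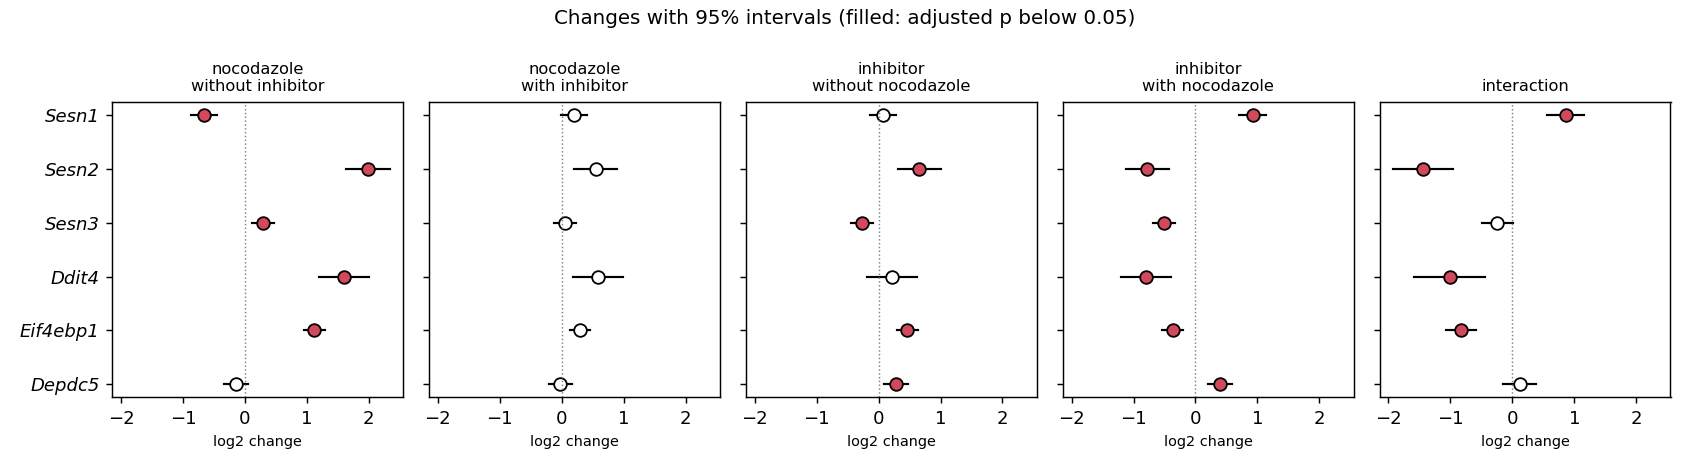
Log2 change of the 6 tested genes (horizontal axis, same scale in every panel) in 5 comparisons; points are edgeR estimates, bars 95% intervals, and filled points have an adjusted p below 0.05. Sesn2 stands at 1.98 in nocodazole without the inhibitor and at 0.55 with it, and Sesn1 at -0.66 and 0.2.

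Sesn2, a leucine-binding sestrin, had the largest change. Its level was 31.5, 24.4, 38.2 and 34.8 CPM in the DMSO libraries and 123, 116, 143 and 129 CPM in the nocodazole libraries, replicates 1 to 4. The inhibitor libraries had 38.3, 65.1, 60.6 and 39.9 CPM and the combined libraries 88.5, 66.1, 69.9 and 72.9. Every nocodazole library was above every other library, every combined library was above every inhibitor library, and the inhibitor libraries, all above DMSO, fell into replicates 2 and 3 high and replicates 1 and 4 low. The high ones were the libraries with more mitochondrial counts. In the combined group replicate 1, with the most at 1.71%, was also the highest. The nocodazole group went the other way: replicates 1 and 2 had 1.36% and 1.5% and lower Sesn2, replicates 3 and 4 had 0.875% and 0.977%. In DMSO, replicate 1 had the most, 1.07%, and was below replicates 3 and 4 in Sesn2. The part of mitochondrial counts in the level was not tested. Nocodazole raised Sesn2 by 1.98 ± 0.17 (SE, log2; 95% interval 1.63 to 2.34, edgeR adjusted p 2.82e-07), a change exceeded in size by 2.61% of tested genes. With the inhibitor the nocodazole change was 0.55 ± 0.164 (interval 0.2 to 0.89, adjusted p 0.369), and the interaction was -1.44 ± 0.233 (adjusted p 0.000604). The inhibitor alone raised Sesn2 by 0.66 ± 0.166 (adjusted p 0.0166), and in nocodazole the inhibitor change was -0.78 ± 0.163 (adjusted p 0.00143). The rise with the inhibitor alone was lost without DMSO replicate 2 (adjusted p 0.0566), inhibitor replicate 2 (0.0694) or inhibitor replicate 3 (0.0631). With inhibitor replicates 1 and 4 only it was 0.28 (adjusted p 0.396), and the change in nocodazole with the inhibitor was then 0.93, still not called.

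The bases before the annotated starts of Sesn2, Ddit4 and Sesn1 are shown because Sesn2 and Ddit4 moved together and Sesn1 the other way. They are 250 bases from RefSeq on GRCm38.p6, read 5′ to 3′ on the strand of the gene, chr4:132510457-132510706 (minus strand), chr10:59951771-59952020 (minus) and chr10:41810324-41810573 (plus, the first of the starts RefSeq gives Sesn1), with a hypoxia response element core in capitals.
Sesn2: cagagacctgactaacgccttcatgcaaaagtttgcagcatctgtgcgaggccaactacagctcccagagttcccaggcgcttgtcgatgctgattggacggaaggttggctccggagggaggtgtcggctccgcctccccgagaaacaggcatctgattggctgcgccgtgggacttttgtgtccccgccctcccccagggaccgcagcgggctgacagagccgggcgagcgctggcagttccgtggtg
Ddit4: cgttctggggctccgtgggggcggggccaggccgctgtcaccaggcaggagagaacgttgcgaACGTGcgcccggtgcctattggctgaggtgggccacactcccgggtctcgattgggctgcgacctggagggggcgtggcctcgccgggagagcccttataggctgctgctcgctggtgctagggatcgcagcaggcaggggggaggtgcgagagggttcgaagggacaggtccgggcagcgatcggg
Sesn1: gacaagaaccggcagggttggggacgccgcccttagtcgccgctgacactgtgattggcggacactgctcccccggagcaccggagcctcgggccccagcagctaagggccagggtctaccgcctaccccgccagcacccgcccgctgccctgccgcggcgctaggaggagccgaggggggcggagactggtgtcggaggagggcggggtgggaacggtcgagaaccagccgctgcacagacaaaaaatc
Windows from 250 bases before to 50 after the start were searched on both strands for TGATGNAA (the C/EBP-ATF response element core), TGACGTCA (cAMP response element), TGANTCA (AP-1), TGTTTAC (forkhead) and ACGTG (hypoxia response element core). The 7 windows of 6 of the genes held 1 forkhead match, in the first Sesn1 window at base 23 after the start, and 1 ACGTG match, in Ddit4 at base -187. Among all 32851 windows of that length, 3.97%, 1.79%, 7.81%, 3.65% and 19.6% held these motifs in the order listed. Eif4ebp1 was not matched to a promoter sequence.

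Ddit4, which acts upstream of the TSC complex, followed Sesn2. Its level was 53, 43.3, 81.9 and 76.8 CPM in DMSO and 162, 189, 236 and 184 CPM in nocodazole. The inhibitor libraries had 58.7, 81.6, 92.4 and 62.9 CPM and the combined libraries 131, 97.4, 95.9 and 119. All nocodazole libraries were above all others, the combined libraries were above the inhibitor libraries, and the inhibitor libraries overlapped DMSO, where replicates 3 and 4 were high. Nocodazole raised Ddit4 by 1.6 ± 0.194 (interval 1.19 to 2.01, edgeR adjusted p 9.66e-06). With the inhibitor its change was 0.59 ± 0.191 (interval 0.18 to 0.99, adjusted p 0.478), and the interaction was -1.01 ± 0.269 (adjusted p 0.0159). The interaction was not called with inhibitor replicates 1 and 4 only, at -0.72 (adjusted p 0.133). The inhibitor value was 0.21 ± 0.191 without nocodazole (interval -0.19 to 0.62, adjusted p 0.481, not called) and -0.8 ± 0.19 in nocodazole (adjusted p 0.0037). The combined group was above DMSO by 0.8 ± 0.191 (adjusted p 0.00927).

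Ddit4l, the paralog of Ddit4 known from muscle as REDD2, was near the limit of detection. Its raw counts were 3, 4, 6 and 8 in DMSO, 0, 0, 6 and 2 in nocodazole, 2, 0, 0 and 4 with the inhibitor and 3, 2, 4 and 0 in the combined libraries. The groups overlapped, and a count of 0 allows up to 3 counts, so no fold is given. Per kilobase it made up at most 0.208% of the Ddit4 and Ddit4l level in any library.

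Sesn1, the sestrin known as a p53 target, moved opposite to Sesn2. Its level was 19.2, 19.3, 17.5 and 17.9 CPM in DMSO and 11.4, 11.7, 11.6 and 12.1 CPM in nocodazole. The inhibitor libraries had 20.5, 15.9, 19.8 and 21.3 CPM and the combined libraries 18, 24.2, 22.1 and 24.7. All 4 nocodazole libraries were below all 12 others, and the other groups overlapped one another. In nocodazole Sesn1 fell by 0.66 ± 0.1 on the log2 scale (interval -0.87 to -0.45, edgeR adjusted p 8.33e-05). With the inhibitor its change was 0.2 ± 0.0982 (interval -0.01 to 0.4, adjusted p 0.871), and the interaction was 0.86 ± 0.14 (adjusted p 0.00066). In nocodazole the inhibitor raised it by 0.93 ± 0.1 (adjusted p 3.03e-06), while alone its change was 0.07 ± 0.0985 (interval -0.14 to 0.28, adjusted p 0.669). Replicate 1 of the combined group, the library that stood apart, had the lowest Sesn1 and the highest Sesn2, Ddit4 and Eif4ebp1 of its group. Without it the interactions were 0.95 for Sesn1, -1.53 for Sesn2, -1.1 for Ddit4 and -0.85 for Eif4ebp1, and the Sesn1 level of the combined group was above DMSO by 0.36 (adjusted p 0.0113) rather than 0.27 (0.075).

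Sesn3, the third sestrin and a known FoxO target, had the smallest nocodazole change of the 3 sestrins. Its level was 13.8, 16.5, 16.4 and 15.9 CPM in DMSO and 19.4, 16.8, 18.9 and 21.4 CPM in nocodazole. The inhibitor libraries had 13.1, 13.3, 12 and 13.7 CPM and the combined libraries 13.1, 12.3, 14.2 and 14.2. Nocodazole libraries were above all others by a small margin, inhibitor libraries were below DMSO, and the inhibitor and combined libraries overlapped. In nocodazole it rose by 0.29 ± 0.0842 (edgeR adjusted p 0.0131), a call lost without DMSO replicate 1 (adjusted p 0.0563) or nocodazole replicate 4 (0.0731). The inhibitor change in nocodazole was -0.51 ± 0.0847 (adjusted p 0.000208). Without nocodazole its change was -0.27 ± 0.0849, with an adjusted p of 0.0484 that missed the threshold in 15 of 26 other settings. Its interaction of -0.24 ± 0.12 was not called (adjusted p 0.171).

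Taken per kilobase of exon, the summed sestrin level was higher in nocodazole, where Sesn2 made up more of it. The sum of the 3 genes was 15.6 ± 1.5 CPM per kb in DMSO (SD, n = 4 libraries), 41.7 ± 3.42 in nocodazole, 20.9 ± 3.48 with the inhibitor and 28.4 ± 2.19 in the combined group. Sesn2 made up 59.1% ± 5.49 of that sum in DMSO, 88.1% ± 0.85 in nocodazole, 69.2% ± 7.59 with the inhibitor and 75.1% ± 4.14 in the combined group. Sesn1 went from 30.2% in DMSO to 7.1% in nocodazole and was 24.1% and 19.9% in the inhibitor groups. Exact 2-sided permutation tests were run on the sum and the Sesn2 share in 4 comparisons, 8 tests in all, with 0.0286 the smallest p that 4 against 4 can give. The sum gave an exact p of 0.0286 (adjusted 0.0381) in all 4 comparisons. Sesn2, the largest part of the sum, did not overlap between groups in any of them, so this result largely restates Sesn2 and is no separate support. The adjustment covers these 8 tests only. For nocodazole with the inhibitor, Sesn2 itself had an edgeR adjusted p of 0.369 over all genes. The Sesn2 share gave an exact p of 0.0286 (adjusted 0.0381) for nocodazole without the inhibitor and for the inhibitor in nocodazole. In those comparisons Sesn2 and Sesn1 each did not overlap and moved opposite ways. The share is built from these levels, so it restates them and is no separate support. It gave an exact p of 0.114 (adjusted 0.13) for the inhibitor alone, and an exact p of 0.257 for nocodazole with the inhibitor. The members share no 31-base stretch with each other within families in the annotated transcripts, and Sesn1, Sesn2 and Ddit4 share none with any other gene.

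**Figure D3:**
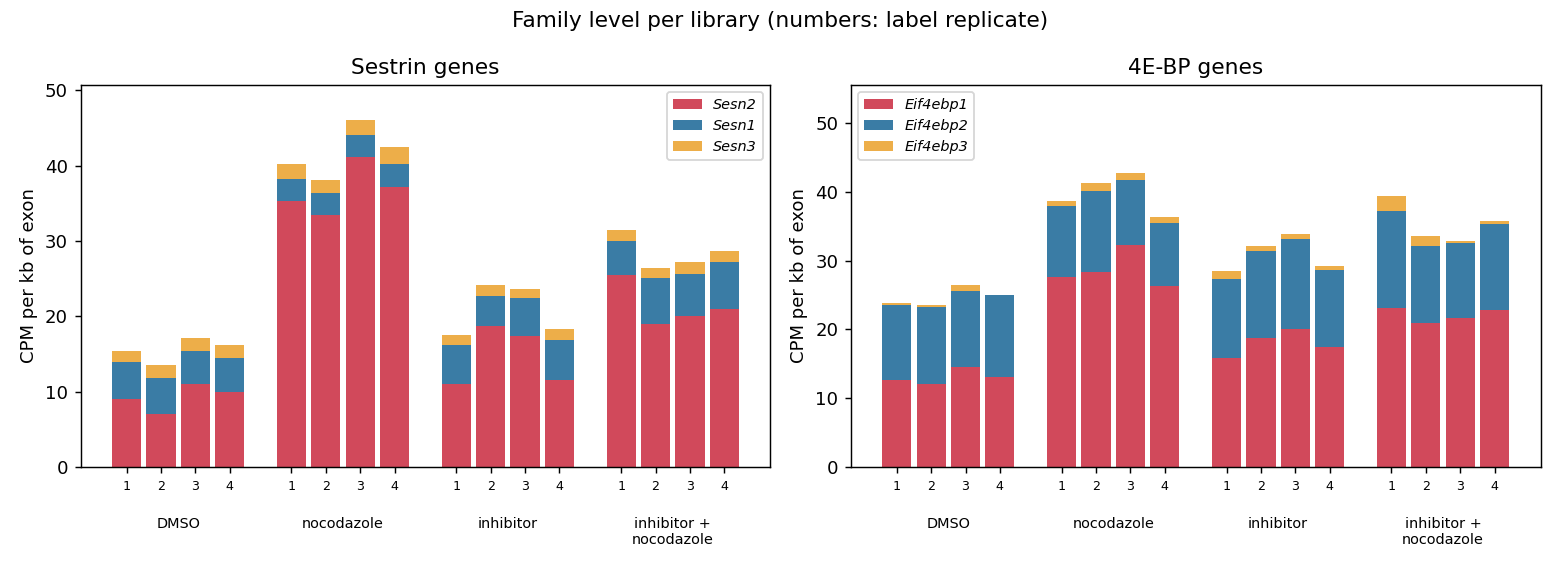
Stacked levels in CPM per kilobase of exon (vertical axes from 0) of the sestrin genes and of the 4E-BP genes in each of the 16 libraries, numbered by replicate under the group name. The sestrin sum is 38.1 to 46.1 in the nocodazole libraries and 13.6 to 17.2 in DMSO, with Sesn2 the largest segment throughout.

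Eif4ebp1, whose product restrains cap-dependent translation, rose in nocodazole and, less, with the inhibitor alone. Its level was 25.4, 24.2, 29 and 26.2 CPM in DMSO and 55.1, 56.5, 64.5 and 52.5 CPM in nocodazole. The inhibitor libraries had 31.6, 37.5, 40.1 and 35 CPM and the combined libraries 46.1, 42, 43.2 and 45.5. The 4 groups did not overlap at all, and they ranked DMSO, inhibitor, combined and nocodazole from low to high. Nocodazole raised it by 1.12 ± 0.0807 (interval 0.95 to 1.3, edgeR adjusted p 4.96e-08), the inhibitor alone by 0.46 ± 0.0805 (adjusted p 0.00187). With the inhibitor the nocodazole change was 0.29 ± 0.0797 (interval 0.13 to 0.46, adjusted p 0.268), and the interaction was -0.83 ± 0.113 (adjusted p 0.000146). In nocodazole the inhibitor changed it by -0.37 ± 0.0792 (adjusted p 0.00167). With inhibitor replicates 1 and 4 only, its change with the inhibitor alone was 0.35 and was not called (adjusted p 0.0739). Of the 31-base stretches of Eif4ebp1, 7.2% also occur in other genes, so reads there could have been counted elsewhere. Among the 4E-BP genes, Eif4ebp1 made up 53% ± 1.48 of the level per kb in DMSO, 72% ± 2.9 in nocodazole, 58.3% ± 1.8 with the inhibitor and 62.7% ± 3.01 in the combined group. The log2 value of its paralog Eif4ebp2 in nocodazole was -0.14 ± 0.0887 (adjusted p 0.214, not called). Eif4ebp3 is uncertain, since 66.4% of its 31-base stretches also occur in a readthrough gene.

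Depdc5, a subunit of GATOR1, was higher in every library with the inhibitor. Its level was 51.6, 49.4, 52.8 and 55.7 CPM in DMSO and 52.4, 55.8, 39.9 and 42 CPM in nocodazole. The inhibitor libraries had 67.2, 64.3, 64.7 and 58 CPM and the combined libraries 61.1, 61.5, 61 and 67.1. Every library with the inhibitor was above every library without it, and nocodazole overlapped DMSO, with replicates 3 and 4 low. Those replicates had 0.875% and 0.977% mitochondrial counts, against 1.36% and 1.5% in replicates 1 and 2. The Schwann cell and satellite glia markers, nearly all S100b and Mbp, summed to 130 and 134 CPM in replicates 3 and 4, against 86.5 and 85.9 CPM. The part of this in the Depdc5 level was not tested. The nocodazole change was -0.14 ± 0.0898 (interval -0.33 to 0.05, edgeR adjusted p 0.238), and without nocodazole replicate 2 it was -0.23 (adjusted p 0.0477). The inhibitor raised it by 0.4 ± 0.0897 in nocodazole (adjusted p 0.00246). Without nocodazole the change was 0.28 ± 0.0894, and its adjusted p of 0.0495 missed the threshold in 16 of 26 other settings. The interaction was 0.12 ± 0.127 (interval -0.15 to 0.39, adjusted p 0.539). Of its GATOR1 partners, Nprl3 fell by 0.42 ± 0.0702 in nocodazole (adjusted p 0.000191; interaction 0.44, adjusted p 0.00573), and Nprl2 stood at -0.18 (adjusted p 0.0759, not called).

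Across the rest of the mTORC1 pathway, nocodazole calls went both ways. Of 67 genes in 5 lists, 66 were tested, and 17 rose and 18 fell in nocodazole without the inhibitor, 53% called against 37.5% of all genes. Their median change was -0.01, near the median of all genes at 0.007. Rag GTPases and Ragulator had 6 of 13 higher and 0 lower, led by Fnip1 (1.13 ± 0.086, edgeR adjusted p 8.92e-08), Fnip2 (0.7) and Flcn (0.38), which encode the folliculin complex, which acts on RagC and RagD. The TSC, Rheb, AKT and AMPK list had 2 of 17 higher and 10 lower, with Tsc1 up by 0.66 ± 0.0821 (adjusted p 1.18e-05) and the AMPK subunits Prkag2 and Prkaa1 changed by -0.56 and -0.51. GATOR complexes and amino acid sensors had 3 of 13 higher and 5 lower. There Castor2, a relative of the arginine sensor, changed by -1.11 ± 0.128 (adjusted p 5.74e-06), and Lars, the leucyl-tRNA synthetase, and Bmt2, also called Samtor, a sensor of S-adenosylmethionine, rose by 0.64 and 0.51. In the mTORC1 complex 1 of 5 rose (Akt1s1, 0.3) and 1 fell (Rptor, -0.34), and of 18 outputs 5 rose, led by Lpin1 (1.17), Grb10 (0.79) and Tfe3 (0.57), and 2 fell. The kinase gene Mtor stood at -0.09, Tsc2 at -0.08, Rheb at 0.18 and Eif4e at -0.11, none of them called (adjusted p 0.1 to 0.245).

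With the inhibitor present, 1 of these 66 pathway genes was called in nocodazole: Lpin1, a lipid phosphatase and mTORC1 target, at 0.89 ± 0.124 (edgeR adjusted p 0.00725). That call was lost without inhibitor replicate 3 (0.85, adjusted p 0.0537) and with inhibitor replicates 1 and 4 only (0.78, 0.168). The inhibitor alone raised 8 and lowered 8 of the 66, and with total counts as library size the split was 11 and 6; the 24.2% called compares with 13% of all genes. In nocodazole the inhibitor raised 15 and lowered 12, 40.9% against 33.9% of all genes. The combined group had 13 higher and 9 lower than DMSO, 33.3% against 16.7%. The interaction was called for 15 (9 positive, 6 negative), 22.7% against 18.7% of all genes. Fnip1 (-1.04, adjusted p 3.8e-05), Tsc1 (-0.59, adjusted p 0.00264) and Castor2 (0.95, adjusted p 0.002) were among them. The 16 calls with the inhibitor alone became 6 without inhibitor replicate 2, 9 without inhibitor replicate 3, 8 without DMSO replicate 4 and 10 without DMSO replicate 2. With inhibitor replicates 1 and 4 only, 1 of the 66 was called with the inhibitor alone (lower), 0 in nocodazole with the inhibitor, and 9 for the interaction (5 positive, 4 negative).

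**Figure D4:**
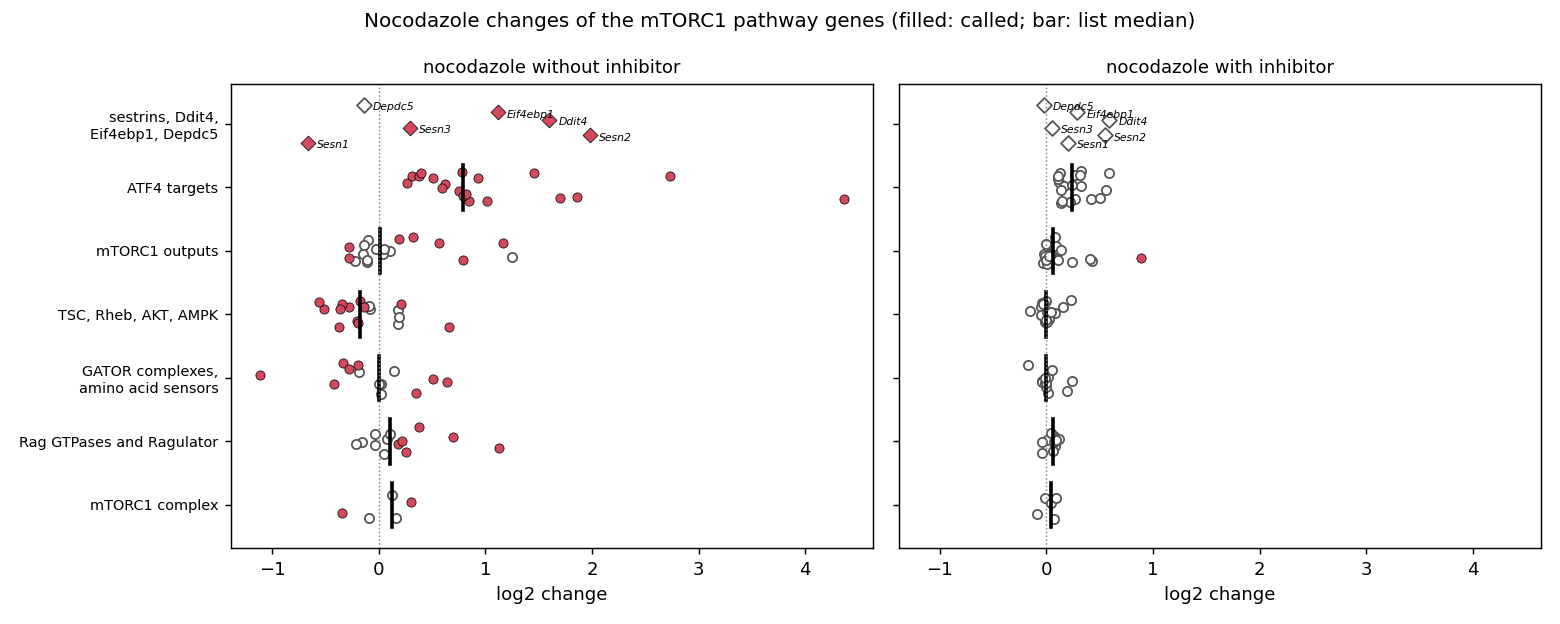
Log2 change in nocodazole without (left) and with (right) the inhibitor, on the same horizontal scale, for the genes followed here (diamonds) and for 6 lists (circles); filled symbols are called and bars are list medians. The ATF4 targets sit to the right of 0 without the inhibitor, with a median of 0.79, and at a median of 0.24 with it, while the pathway lists spread to both sides.

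ATF4 target genes other than those followed here rose in nocodazole as Sesn2, Ddit4 and Eif4ebp1 did. All 19 on the list were called higher without the inhibitor (18 or 19 in every other setting run), where 37.5% of all genes were called and 3556 of 19156 were higher. Their median was 0.79, and those with the largest changes at a mean of at least 5 CPM were Ddit3 (2.73 ± 0.282, edgeR adjusted p 1.87e-06), Cebpb (1.86) and Trib3 (1.7). With the inhibitor 0 of 19 were called, with a median of 0.24, in a comparison where 0.0835% of all genes were called. The combined group against DMSO had 14 of 19 called higher and 0 lower (median 0.62), where 16.7% of all genes were called. With the inhibitor alone all 19 were above 0 (median 0.3) and 4 were called, where 13% of all genes were. For the inhibitor in nocodazole 11 of 19 were called lower, 1 higher and 7 not called (median -0.27). In that comparison 33.9% of all genes were called. The interaction was called for 12, all negative (7 with inhibitor replicates 1 and 4 only), and for 18.7% of all genes. The direction of this list in these data was known when it was made, so its count is no independent support. Atf4 itself was at 236 ± 27.9 CPM in DMSO, 377 ± 47.5 in nocodazole, 285 ± 8.67 with the inhibitor and 378 ± 27.5 in the combined group (SD, n = 4). Its transcript rose by 0.67 ± 0.0906 in nocodazole (edgeR adjusted p 2.61e-05). The inhibitor value of the transcript in nocodazole was 0 ± 0.0901 (edgeR adjusted p 0.976), where Sesn2, Ddit4 and Eif4ebp1 were lower. ATF4 protein was not measured, and its part in these changes was not tested. Foxo3 rose by 0.73 (adjusted p 9.54e-07), Foxo1 by 1.04 from a level of 0.758 CPM (adjusted p 0.00199) and Trp53 by 0.33 (adjusted p 0.00665).

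The genes whose pattern over the 16 libraries was nearest to each gene were found by the root mean square difference of centred log2 CPM among 10803 genes with a mean of at least 5 CPM. For Sesn2 they were Trib3 (0.167), Cass4 (0.178) and Trp53inp1 (0.186), where the median gene stood at 0.805. For Ddit4 they were Cass4 (0.146), Nfil3 (0.173) and 1700017B05Rik (0.188), against a median of 0.715. Cass4 was thus on both lists, and among the 21 pairs of the 7 genes the closest pair was Sesn2 and Ddit4, at 0.214. Eif4ebp1 was nearest to Clic4 (0.0999), 2410006H16Rik (0.121) and Gpr63 (0.121). Sesn1 was nearest to Cep131 (0.106), Cbx6 (0.11) and Fam81a (0.116), and Sesn3 to Rraga (0.082), a Rag GTPase gene, Clcn3 (0.0859) and Pogk (0.0902). Depdc5 was nearest to Cog3 (0.0775), Fpgt (0.079) and Dph1 (0.0792). A gene that changes little has small differences to many genes, and the median gene stood at 0.47 for Eif4ebp1, 0.388 for Sesn1, 0.291 for Sesn3 and 0.271 for Depdc5.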

How the data were processed

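Total RNA in 16 libraries was sequenced after removal of ribosomal RNA, per the labels' protocols. The deposited values are raw counts, whole numbers for each Ensembl gene, made by the authors. Per the submitters' processing notes, STAR, Salmon and GRCm39 were used; which made the counts, and strand settings, are not given in the sources used here, so counts may be rounded estimates. GENCODE M21 on GRCm38 gave symbols for 52080 identifiers (94.1%) and, in its basic set, exon lengths. Coordinates and sequences are RefSeq's on GRCm38.p6.

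In R 4.3.3, edgeR 4.0.16 scaled library sizes by trimmed mean of M-values, filtered with filterByExpr (19156 genes left) and fitted 1 mean per group over 16 libraries, testing 6 contrasts; log2 CPM used a prior count of 2. The procedure was tested on simulated data. Alternatives were other scalings, DESeq2 1.42.0, limma 3.58.1 voom, other filters, the compared groups alone, a replicate block and leaving out libraries. The members, the 10 lists and the tests were chosen with earlier results of these data known. All 7 members are named; of each list, up to 3 called genes with the largest nocodazole change at a mean of at least 5 CPM, and preset partners and transcription factors.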

Additional observations from a re-analysis of the deposited data

Results flagged for a closer look

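The nocodazole change differed between cultures with and without the inhibitor, by edgeR's interaction term, for Sesn1 (0.86 on the log2 scale), Sesn2 (-1.44), Ddit4 (-1.01) and Eif4ebp1 (-0.83). All 4 kept their sign in the 25 other settings run, and only the Ddit4 call was lost, with inhibitor replicates 1 and 4 only. Depdc5 in the combined group had 1 library, replicate 4 at 67.1 CPM, apart from the other 3 at 61 to 61.5: the gap was 0.918 of the group's range, above Dixon's 95% limit for 4 values. It was the only such group of 28 examined, and chance gives about 1 in 20.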

How the results depend on the processing

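Of 36 results (6 genes in 6 comparisons), 22 were called, and 16 of these kept their call in every setting run. Over 912 values from up to 26 other settings, 860 kept their side of the threshold, 39 lost the call, 13 gained it and 0 called values reversed. A value called in neither setting counted as kept even if its sign changed. Ddit4 for the inhibitor alone did so, at 0.21 and at -0.07 with inhibitor replicates 1 and 4 only. The changes of Sesn1, Sesn2, Ddit4 and Eif4ebp1 in nocodazole without the inhibitor and all 6 of the inhibitor in nocodazole were among those kept.

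For the inhibitor alone, 4 of the genes were called; without a filter there were 2, and with inhibitor replicates 1 and 4 only, a setting chosen after seeing the data, 0. That setting gave 323 genes called in all for the inhibitor alone, 0 for nocodazole with the inhibitor and 1507 for the interaction. For nocodazole with the inhibitor, 30 genes were called with total counts as library size, 125 with DESeq2, 28 without a filter and 6 from the compared groups alone. In the combined group against DMSO, 5 of the genes were called with total counts as library size and 5 among genes of at least 1 CPM. The cause was not tested.

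Replicate numbers gave no clear pairing of the libraries. The correlation of same-numbered deviations was -0.697 to 0.509 (median 0.0857), with 10 of 24 pairs over 0.1. The median for differently numbered libraries was -0.0541, and 2 of 16 libraries matched their own number best. Such weak correlations cannot show whether the cultures were paired. With a replicate block, 2 of the genes were called for the inhibitor alone and 5 genes in all for nocodazole with the inhibitor.

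Leaving out 1 library at a time, genes called ran from 6160 to 7770 for nocodazole without the inhibitor, 1242 to 3087 for the inhibitor alone, 3 to 88 for nocodazole with the inhibitor (88 without combined replicate 1), 5484 to 7218 for the inhibitor in nocodazole, 2096 to 3510 for the combined group against DMSO and 2607 to 5218 for the interaction. Of the 6 genes, 4 to 6, 1 to 4, 0 to 0, 6 to 6, 3 to 4 and 4 to 4 were called in that order. Scaling moved the share of called genes that were higher from 44.4% to 56.6% for the inhibitor alone (upper quartile) and from 49.3% to 62.5% for the combined group against DMSO (total counts).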

Other observations

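Lists tied to other known regulators of Sesn1, Sesn2, Sesn3 and Ddit4 also moved in nocodazole, and their direction in these data was known when they were made. Over all genes 37.5% were called in that comparison, 3556 higher and 3631 lower of 19156. Of 15 p53 targets, counted without the sestrins, 9 rose and 0 fell without the inhibitor in edgeR, among them Btg2, an antiproliferative gene (2.35 on the log2 scale), Trp53inp1 (2.1) and Bbc3, which encodes the cell death protein Puma (1.95). Sesn1, known as a p53 target, fell in the same libraries, and the part of p53 in its change was not tested. Of 12 tested FoxO targets, 8 rose and 0 fell, among them Bcl6 (3.22), Gadd45a (2.63) and Bcl2l11 (1.87). Hypoxia targets had 6 higher and 5 lower of 14, with Slc2a1, the glucose transporter GLUT1, at 1.26, Vegfa at 1.11 and Pfkfb3 at 0.95. Glucocorticoid targets had 7 higher and 2 lower of 10, with Dusp1 at 3.03 and the metallothioneins Mt2 and Mt1 at 2.34 and 1.9. The activity of these regulators was not measured, and their part in the changes of the sestrins and Ddit4 was not tested.

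With the inhibitor, nocodazole gave 0 called genes in each of these 4 lists, in a comparison where 16 genes, 0.0835% of all tested, were called. The interaction was called for 18.7% of all genes, 1824 positive and 1763 negative. It was called negative for 6 of 15 p53 targets, 6 of 12 FoxO targets and 5 of 10 glucocorticoid targets, with none positive, and for hypoxia targets it was called positive for 3 and negative for 5 of 14.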
